A study of Mus musculus with 4 samples.

Results

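Conventional dendritic cells were identified in mouse pancreatic tumours as 172 of 14298 cell barcodes, in 4 single-cell RNA libraries, 2 of vehicle-treated and 2 of TAK-981-treated mice. A barcode is the tag shared by all RNA caught in 1 droplet, and a unique molecular identifier (UMI) marks 1 caught molecule. The members were chosen by their UMI counts, starting from barcodes that had 500 UMIs and 250 genes or more and no more than 20% of UMIs from mitochondrial genes. The rule kept those with a UMI of at least 2 of 10 genes: Flt3, Cd209a, Cd209d, Xcr1, Clec9a, Wdfy4, Zbtb46, Napsa, Ccl17 and Plet1. The cells also needed at least 3 UMIs summed over the MHC class II genes H2-Ab1, H2-Aa, H2-Eb1 and Cd74. At most 1 UMI of C1qa, C1qb and C1qc together and at most 1 of Krt8, Krt18 and Krt19 together was allowed, with none of Cd3e or Cd79a. A last step set aside 74 barcodes with 2 or more of Ccr7, Fscn1, Ccl22, Cacnb3 and Tbc1d4, the genes of mature, migrating dendritic cells. Because these counts chose the members, the 27 genes of the rule are described below and not tested.

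All 4 mice carried KPC46 tumours, labelled as pancreatic ductal adenocarcinoma from 1 organoid line, in animals of strain B6/129 F1J. KPC is the usual name of a genetically engineered mouse model of pancreatic cancer. The controls received the carrier Cremophor, and the treated mice received TAK-981 (Subasumstat), an inhibitor of the enzyme that activates SUMO, a small protein attached to other proteins. The labels used here give no dose, treatment time or age, and the whole dissociated tumour was loaded without a sort for immune cells. Each library was 1 mouse, so every test compares 2 mice with 2 mice.

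Conventional dendritic cells take up antigen in tissues and present it to T cells on MHC molecules. They arise from bone marrow precursors under the growth factor receptor Flt3, and fall into a type 1 lineage, which depends on Irf8 and Batf3 and is known for passing antigen to CD8 T cells, and a type 2 lineage, which is more varied and is known for priming CD4 T cells. After they sense danger signals they switch on Ccr7 and leave for lymph nodes, and monocytes that enter a tumour can take on some of the same genes.

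The defining markers were present in the cells, but unevenly. Flt3 had a UMI in 25.2% and 22.2% of the vehicle members and in 13.3% and 8.33% of the TAK-981 members, while 0 or 1 C1q macrophage per library had one. Zbtb46, a transcription factor of the conventional lineage, was seen in 12, 1, 2 and 1 members in the order vehicle 1, vehicle 2, TAK-981 1 and TAK-981 2. Xcr1, the type 1 chemokine receptor, was seen in 10, 2, 2 and 0 members, and Cd209a, a lectin of type 2 cells and monocyte-derived cells, in 36, 1, 1 and 0. Napsa, an aspartic protease, was found in 80.3%, 88.9%, 100% and 100% of members, and Wdfy4, which type 1 cells need to present cell-borne antigen, in 52.8%, 55.6%, 73.3% and 75%. These most frequent markers were also the least specific: in C1q macrophages, Napsa had a UMI in 19.4% to 21.3% of cells and Wdfy4 in 8.85% to 30.7%. The label therefore rests on different genes in different members, which the classes described below keep apart.

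Cells close to the limits were common. Of the members, 74 carried exactly 2 of the 10 marker genes, 53 carried 3 and 45 carried 4 or more, while 262 other barcodes met every other limit but had 1 marker. A further 9 barcodes missed only because their C1q genes summed to 2 UMIs. Among the members 126 had none of the 5 mature genes and 46 had 1. Of the barcodes set aside as mature, 19 had 2 and 55 had 3 or more. MHC class II UMIs per member had medians of 87, 124, 269 and 324 in the 4 libraries, far above the limit, although the lowest member in each had 5, 4, 13 and 3.

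The libraries differed in depth. Median UMIs per quality-passing barcode were 2303.5 and 4227.5 with vehicle but 5026 and 13117 with TAK-981, and per dendritic cell 2904, 3046.5, 6515 and 8470.5. The members summed to 396880, 52680, 97066 and 95278 UMIs, so vehicle 2 is the thinnest profile and vehicle 1 holds most cells. Median mitochondrial shares in the members were 2.28%, 1.67%, 6.01% and 3.43%. Libraries shared between 1 and 10 barcodes per pair, and none of these was a member. Depth and mitochondrial share moved with treatment, and their part in the results below was not tested, except where a value at equal depth is given.

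The number of dendritic cells varied most between the vehicle mice. Members numbered 127 of 4576 barcodes in vehicle 1, or 2.78% (95% exact binomial interval 2.32% to 3.29%, which covers counting error only). Vehicle 2 had 18 of 4276 (0.421%). The treated libraries had 15 of 2255 (0.665%) and 12 of 3191 (0.376%). Vehicle 1 stood alone above the other 3 libraries, and vehicle 2 lay between the treated mice, so the groups overlapped. The group means were 1.60% ± 1.66 (SD, n = 2) with vehicle and 0.521% ± 0.204 (SD, n = 2) with TAK-981. A two-sided exact permutation test gave p = 0.667, where 2 against 2 libraries cannot give less than 0.333. Among barcodes with a UMI of Ptprc, which encodes the leukocyte protein CD45, members made up 4.61%, 1.81%, 1.75% and 1.29%. With that denominator both treated libraries lay below both vehicle libraries, but by less than the width of the intervals outside vehicle 1. Without vehicle 1, the share was 0.0997 percentage points higher with TAK-981 than in vehicle 2.

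**Figure D1:**
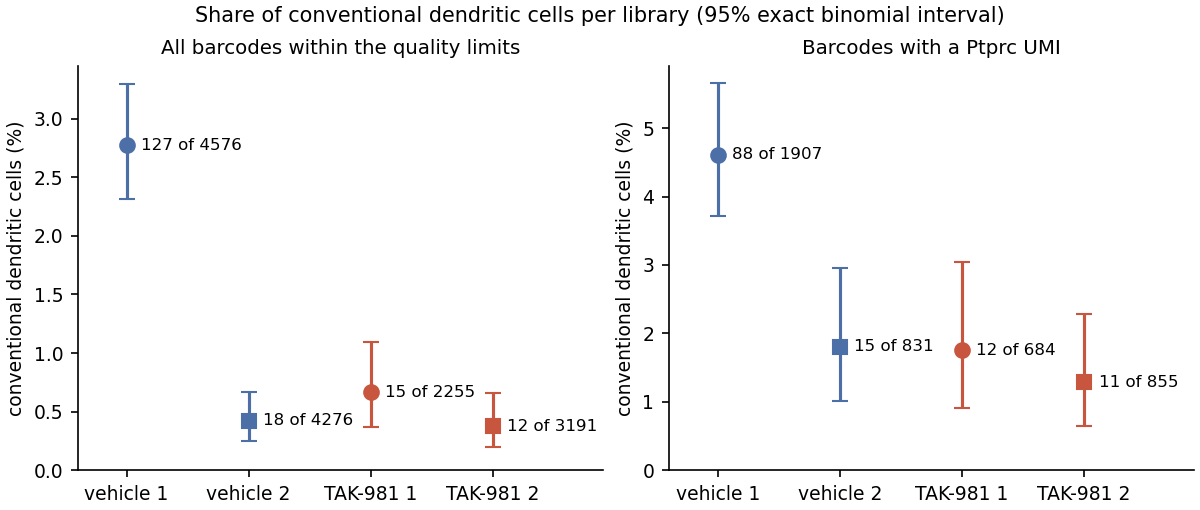
Share of barcodes that are conventional dendritic cells in each library, among all barcodes within the quality limits (left) and among barcodes with a Ptprc UMI (right), in percent. Points are libraries, bars are 95% exact binomial intervals for counting error, and vehicle 1 stands above the other 3 libraries in both panels.

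Subtype markers split a minority of the cells cleanly. Members with a UMI of Xcr1 or Clec9a and none of Cd209a or Cd209d numbered 19, 3, 2 and 2 in the order given above, and members with the reverse pattern numbered 45, 2, 1 and 1. Both kinds of marker met in 2 cells of vehicle 1, and 61, 13, 12 and 9 members had neither. The share of Xcr1 or Clec9a cells among those marked on 1 side only was 29.7%, 60%, 66.7% and 66.7%. The group means were 44.8% ± 21.4 (SD, n = 2) and 66.7% in each treated library, with an exact permutation p of 0.333, the smallest this design allows. Only 3 such cells stood behind each treated share, and the direction turned when barcodes were thinned to 2000 UMIs.

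Some genes that the rule did not use went with the subtype markers in the same direction in all 4 libraries. These genes were selected for that direction, so their levels are a description. Levels are given as UMIs of the gene per 1000000 UMIs of those cells (CPM). Itgae, the integrin chain CD103 of type 1 cells, stood at 274, 848, 384 and 559 CPM in Xcr1 or Clec9a cells and at 16.2, 0, 0 and 0 CPM in Cd209a or Cd209d cells. Cst3, which encodes the protease inhibitor cystatin C, stood at 22803, 25358, 40985 and 36249.9 CPM against 3677, 4093, 1206 and 338 CPM. Naaa, a lysosomal amidase, stood at 1246, 1611, 1982 and 1373 CPM against 211, 227, 301 and 169 CPM. Batf3, the type 1 transcription factor, stood at 219, 254, 128 and 50.8 CPM against 89.1, 0, 0 and 0 CPM. Each of these genes was higher in the Xcr1 or Clec9a cells of every mouse, and so were Trim35, Sept3, Ncoa7, Fgl2, P2ry14, Hfe and Sdad1. Other known lineage genes did not keep 1 direction. Irf8 stood at 1328, 1187, 959 and 407 CPM in the Xcr1 or Clec9a cells and at 478, 227, 151 and 4220 CPM in the Cd209a or Cd209d cells. The value of 4220 CPM is that of 1 cell, which had 10297 CPM over 11 plasmacytoid dendritic genes. Id2 and Cd24a were lower in the Xcr1 or Clec9a cells in vehicle 2 and higher in the other 3 libraries. The type 2 genes Mgl2 and Clec10a were higher in the Xcr1 or Clec9a cells in TAK-981 2 and in vehicle 2, respectively.

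Genes on the Cd209 side were selected in the same way. Cybb, a subunit of the phagocyte oxidase, stood at 13.7, 0, 0 and 0 CPM in the Xcr1 or Clec9a cells and at 348, 455, 377 and 844 CPM in the Cd209a or Cd209d cells. Ccr2, the receptor by which monocytes enter tissue, stood at 151, 0, 0 and 0 CPM in the former and was higher in the latter in each library. Ctsl, Ctsd, Slc44a2, Ms4a6c, Ly86 and Cd164 were likewise higher on that side in all 4 libraries. S100a4, a calcium-binding protein, was higher there in both vehicle libraries and had no UMI in either kind of cell with TAK-981. Sirpa and Irf4, both used to define type 2 cells, had no UMI in any Xcr1 or Clec9a cell. With 1 to 2 Cd209a or Cd209d cells outside vehicle 1, the values of the other libraries rest on single cells. Over 11 plasmacytoid dendritic genes, all members with a Cd209a or Cd209d UMI summed to 1550, 227, 0 and 10297 CPM. The Xcr1 or Clec9a cells summed to 54.7, 170, 192 and 0 CPM over the same genes. The only Cd209a or Cd209d cell of TAK-981 2, which gave the 10297 CPM, had 506 CPM of the 4 MHC class II genes.

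Members admitted by Napsa and Wdfy4 alone differed in 2 summed levels from the members marked by Flt3, Zbtb46, Ccl17 or Plet1. The Napsa and Wdfy4 class was set up after the values had been seen. It holds 16, 4, 2 and 5 members, or 12.6%, 22.2%, 13.3% and 41.7% of the cells of each library. The summed level of 12 monocyte genes (among them Ly6c2, Ccr2, Vcan and Fn1) was 4220, 6162, 11183 and 14328 CPM in it. In members marked by Flt3, Zbtb46, Ccl17 or Plet1 the same sum was 1447, 1609, 1836 and 2820 CPM. The 4 MHC class II genes of the rule summed to 18908, 28693, 8064 and 17426 CPM in the Napsa and Wdfy4 cells, and to 30444, 45470, 47462 and 50726 CPM in the Flt3, Zbtb46, Ccl17 or Plet1 cells. In each of the 4 mice the Napsa and Wdfy4 cells had the higher monocyte sum and the lower MHC class II sum. MHC class II genes were under 1% of the UMIs of 17, 2, 1 and 4 members, and 10, 0, 1 and 2 members had a UMI of 3 or more plasmacytoid genes. In TAK-981 2, 4 of 12 members had under 1% MHC class II and over 50 monocyte-gene UMIs per 10000. Such members were 11, 2 and 1 in vehicle 1, vehicle 2 and TAK-981 1.

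**Figure D2:**
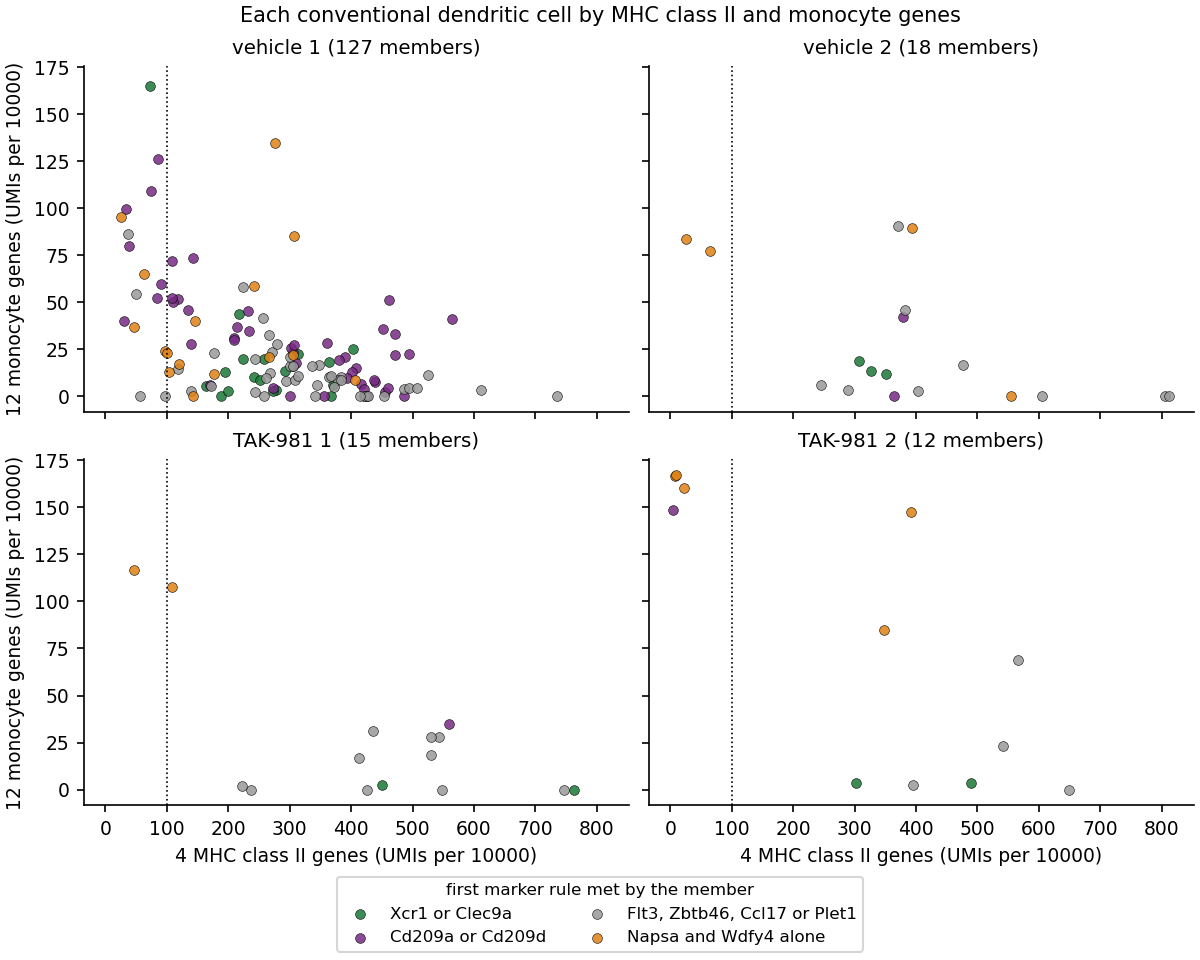
Each member by the UMIs of 4 MHC class II genes (horizontal axis) and of 12 monocyte genes (vertical axis), both per 10000 UMIs, with 1 panel per library and colour for the first marker rule the cell met. The dotted line marks 100 per 10000 (1%), and the 2 members marked by Napsa and Wdfy4 alone lie highest on the monocyte axis for TAK-981 1, while for TAK-981 2 the Cd209a or Cd209d cell lies among the 5 of them.

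The marker lists of other cell types had these summed levels in the members. Over 12 T and NK genes the members summed to 30, 0, 0 and 0 CPM, with Cd3g and Nkg7 at 0 in every library. Over 8 fibroblast genes the sum was 129, 19, 0 and 10 CPM, with Dcn at 0 throughout, and over 8 endothelial genes 28, 19, 0 and 73 CPM. The 12 macrophage genes summed to 663, 930, 1257 and 1312 CPM, and the 10 neutrophil genes to 454, 513, 443 and 777 CPM. The 10 B or plasma cell genes summed to 299.8, 0, 134 and 136 CPM. Epithelial genes reached 509, 133, 577 and 1595 CPM, and acinar genes 20, 0, 433 and 157 CPM. Spp1, which macrophages also express, gave 157, 2, 16 and 144 UMIs of the epithelial list, and 1 member held 134 of the 144 in TAK-981 2. The 12 monocyte genes summed to 2321, 2619.6 and 3070.1 CPM in the first 3 libraries and to 8050.1 CPM in TAK-981 2. Monocyte, macrophage, epithelial and acinar sums were higher in both treated libraries than in both vehicle libraries. Their part in the treatment results was not tested beyond the fits without particular classes of cells.

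Cells in cycle were rare. At least 2 of 10 proliferation genes, such as Mki67 and Top2a, were seen in 10, 0, 2 and 1 members, or 7.87%, 0%, 13.3% and 8.33%, where 0 of 18 cells allows up to 16.7%. The means were 3.94% ± 5.57 and 10.8% ± 3.54 (SD, n = 2 each), and the exact permutation p was 0.333. When each barcode was thinned to 1000 UMIs before the rule, such cells were 2 of 79, 1 of 12, 0 of 8 and 0 of 8. The difference then turned to -5.43 percentage points, where 0 of 8 cells allows up to 37.5%. Thinning also changed which barcodes were members, and the part of depth alone was not tested.

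To compare treated with control tumours, UMIs were summed over the members of each library and tested gene by gene with edgeR's quasi-likelihood test. After genes with low counts and the genes of the rule were left out, 1425 genes were tested. With TAK-981, 5 genes were higher at an adjusted p under 0.05 (0.351% of those tested) and 95 were lower (6.67%). Before adjustment, 261 genes had p under 0.05, and the median log2 fold change over all genes was 0.00. Both treated libraries lay above both vehicle libraries for 22.8% of genes and below them for 25.6%. Vehicle 1 held 127 of the 145 vehicle cells, and without it 0 genes were higher and 9 lower.

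Most of the lower genes encode proteins of the ribosome and the respiratory chain. Of 80 ribosomal protein genes tested, 45 were lower (median log2 fold change -1.34), and of 68 genes named Nduf, Uqcr, Cox or Atp5, 18 were lower (median -1.16). Rpl37a, a protein of the large ribosomal subunit, fell from 6099.5 and 5629 CPM to 726 and 724 CPM (log2 fold change -3.02, SE 0.27, adjusted p = 0.0037 in edgeR; CPM from here on is scaled by the TMM factors of the fit). Uqcr11, a subunit of respiratory complex III, fell from 423 and 257 to 28.7 and 28.2 CPM (log2 fold change -3.62, SE 0.50, adjusted p = 0.0098). Atp5k, a subunit of ATP synthase, fell from 580 and 316 to 9.55 and 84.6 CPM, and Ndufa3 and Ndufa1, of respiratory complex I, fell by 3.42 and 3.11 on the log2 scale. Uqcr10, Atp5mpl, Ndufb4, Romo1, Pin4, Dpm3 and 2410006H16Rik fell by between 2.63 and 3.55.

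Transcript length moved with this result. Of the genes tested, 142 (9.96%) had a longest annotated transcript under 800 nt, and these made up 55 of the 95 lower genes and 0 of the 5 higher ones. The median log2 fold change was -1.19 for the short transcripts and 0.07 for the others. In C1q macrophages of the same libraries the medians were -0.61 and 0.00, and the 94 ribosomal protein genes tested there had a median of -0.89 with 0 lower. With short transcripts left out, 28 genes were lower in the dendritic cells, and with the trend on transcript length removed, 19 were. Whether the libraries differed in their capture of short transcripts or the cells in their RNA was not tested.

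**Figure D3:**
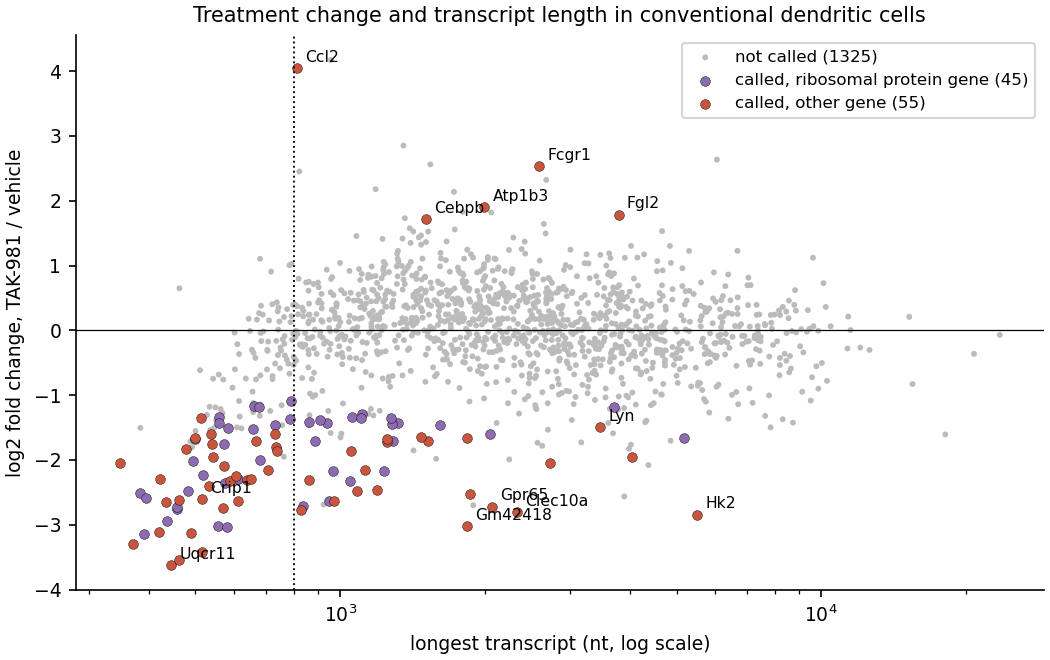
Log2 fold change of TAK-981 against vehicle in conventional dendritic cells (vertical axis) against the longest annotated transcript of each gene in nucleotides (horizontal log axis), with the 100 called genes coloured. Left of the dotted line at 800 nt the median is -1.19 and right of it 0.07, while Hk2, Clec10a, Gpr65 and Lyn lie among the long transcripts.

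The 5 genes that rose are a chemokine, an Fc receptor, a transcription factor, a fibrinogen-like protein and a subunit of the sodium pump. Ccl2, the chemokine that draws Ccr2-bearing monocytes (chromosome 11, 82035571 to 82037453, GRCm38), stood at 40.8 and 19.8 CPM with vehicle and 363 and 865 CPM with TAK-981. Its log2 fold change was 4.04 (SE 0.60, adjusted p = 0.013 in edgeR). Fcgr1, the high-affinity receptor for IgG and a gene induced by interferon-gamma, stood at 61.3 and 39.5 against 191 and 469.9 CPM (log2 fold change 2.53, SE 0.55, adjusted p = 0.035). Cebpb, a transcription factor of monocyte and macrophage development, stood at 344 and 277 against 936 and 1156 CPM (log2 fold change 1.72, SE 0.35, adjusted p = 0.027). In each case the 2 treated libraries lay clear above both vehicle libraries.

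The 3 genes differed in how many cells carried them. Ccl2 had 14, 1, 38 and 92 UMIs in 4, 1, 2 and 5 members, and 1 member held 37 of the 38 in TAK-981 1. Fcgr1 had a UMI in 20, 2, 7 and 8 members and Cebpb in 43, 7, 6 and 6. Members marked by Napsa and Wdfy4 alone held 97.4% and 98.9% of the Ccl2 UMIs of TAK-981 1 and TAK-981 2, 65.3% and 94.3% of those of Cebpb, and 40% and 84% of those of Fcgr1. In the Flt3, Zbtb46, Ccl17 or Plet1 cells Fcgr1 stood at 78.6 and 0 CPM with vehicle against 127 and 247 CPM with TAK-981, unscaled. These levels are 12, 0, 7 and 7 UMIs, and 2 members held the 7 of TAK-981 2. Without the Napsa and Wdfy4 cells, Ccl2 and Fcgr1 had too few counts to be tested, and Cebpb had a log2 fold change of 0.17 (adjusted p = 0.89 in edgeR). With members of at least 3 marker genes only, Cebpb was at -0.32. The Cd209a or Cd209d cell of TAK-981 2, whose monocyte sum was 14855 CPM, had 0 UMIs of Ccl2, Cebpb and Fcgr1.

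Atp1b3 and Fgl2 had a smaller part of their UMIs in the Napsa and Wdfy4 cells of each treated library. Atp1b3, the beta 3 subunit of the sodium and potassium pump, stood at 140.0 and 237 against 745 and 554 CPM (log2 fold change 1.90, SE 0.42, adjusted p = 0.037 in edgeR). The Napsa and Wdfy4 cells held 37.2% and 40.7% of its UMIs in the treated libraries, and without them its log2 fold change was 1.94 (adjusted p = 0.055). In TAK-981 1, 2 Xcr1 or Clec9a cells held 33 of its UMIs, or 42.3%. In the Flt3, Zbtb46, Ccl17 or Plet1 cells Atp1b3 stood at 105 and 192 CPM with vehicle and at 200 and 353 CPM with TAK-981, unscaled. In that class TAK-981 1 was thus close to vehicle 2. Fgl2, a fibrinogen-like protein with prothrombinase and immune-regulatory activity, stood at 84.6 and 79 against 239 and 338 CPM (log2 fold change 1.78, SE 0.40, adjusted p = 0.038). The Napsa and Wdfy4 cells held 12% and 63.9% of the Fgl2 UMIs of TAK-981 1 and TAK-981 2. In members marked by Flt3, Zbtb46, Ccl17 or Plet1, Fgl2 stood at 118, 76.6, 291 and 282 CPM, unscaled, so the treated values were higher in that class too. Without the Napsa and Wdfy4 cells it was at 1.40 (adjusted p = 0.073), and DESeq2 did not call it (adjusted p = 0.27).

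The promoter sequences of the genes that rose were read because several of them are known interferon or inflammatory targets. RefSeq (GRCm38.p6) gave a promoter for 4 of the 5. Capitals mark a match, on either strand, to the gamma-activated site TTCNNNGAA of interferon-gamma signalling, in the 250 bases before the start of transcription. The windows are chr3:96293970-96294219 on the minus strand for Fcgr1, chr5:21372423-21372672 on the plus strand for Fgl2 and chr2:167688665-167688914 on the plus strand for Cebpb, each printed 5′ to 3′ in the direction of the gene.
Fcgr1: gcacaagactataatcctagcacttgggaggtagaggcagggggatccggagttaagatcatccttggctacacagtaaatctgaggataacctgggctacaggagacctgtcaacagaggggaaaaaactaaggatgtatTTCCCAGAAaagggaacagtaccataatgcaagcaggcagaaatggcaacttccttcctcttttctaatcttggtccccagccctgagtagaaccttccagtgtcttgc
Fgl2: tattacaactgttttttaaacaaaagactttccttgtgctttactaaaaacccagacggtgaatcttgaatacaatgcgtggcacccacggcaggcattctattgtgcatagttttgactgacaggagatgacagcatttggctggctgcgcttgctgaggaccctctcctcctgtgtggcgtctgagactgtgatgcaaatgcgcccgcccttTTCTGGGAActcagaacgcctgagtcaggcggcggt
Cebpb: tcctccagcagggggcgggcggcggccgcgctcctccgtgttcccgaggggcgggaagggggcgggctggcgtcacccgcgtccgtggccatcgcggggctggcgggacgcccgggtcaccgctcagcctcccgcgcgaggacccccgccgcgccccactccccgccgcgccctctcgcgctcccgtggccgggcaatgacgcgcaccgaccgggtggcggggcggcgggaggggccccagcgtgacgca
The Fcgr1 window has 1 match, TTCCCAGAA, 109 to 101 bases upstream, and the Fgl2 window has 1, TTCTGGGAA, 36 to 28 bases upstream. The Cebpb window, at 81.6% G and C, and the Atp1b3 windows have none. The same letters occur in 7.02% of all 32851 promoter windows of this length in the table. The interferon-stimulated response element (2.98% of all windows) and the C/EBP sequence TTGCNNAA (9.56%) were found in none of the windows of the 4 genes. A match describes letters and not a bound factor, and the start site used in these cells is not known here.

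Outside the ribosome and the respiratory chain, several lower genes belong to the surface and metabolism of the dendritic cells. Clec10a, a galactose-type lectin of type 2 dendritic cells, had 81, 12, 2 and 5 UMIs in 35, 6, 1 and 4 members and stood at 236 and 237 CPM with vehicle against 19.1 and 47.0 CPM with TAK-981. Its log2 fold change was -2.80 (SE 0.50, adjusted p = 0.017 in edgeR), and no single member carried more than 41.7% of its UMIs in a vehicle library. In vehicle 1, 66.7% of its UMIs lay in Cd209a or Cd209d cells, which numbered 47, 2, 1 and 1 and had 423, 0, 0 and 338 CPM, unscaled. In the Flt3, Zbtb46, Ccl17 or Plet1 cells it stood at 137 and 421 against 36.4 and 70.5 CPM, unscaled. Both treated libraries thus lay below both vehicle libraries in the second class and not in the first. Without the Napsa and Wdfy4 cells the log2 fold change was -2.65 (adjusted p = 0.036), and by DESeq2 it was -2.72 (adjusted p = 0.15).

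Hk2, the hexokinase that traps glucose in cells with high glycolysis, stood at 277 in each vehicle library and at 38.2 and 37.6 CPM in the treated ones (log2 fold change -2.84, SE 0.43, adjusted p = 0.013 in edgeR). Hk2 had 95 and 14 UMIs with vehicle and only 4 and 4 with TAK-981. Its longest transcript is 5513 nt, so it is no short transcript. Within the Flt3, Zbtb46, Ccl17 or Plet1 cells it stood at 314 and 421 against 54.5 and 0 CPM, unscaled, where 54.5 CPM was 3 UMIs of 1 member. Without the Napsa and Wdfy4 cells the log2 fold change of Hk2 was -3.27 (adjusted p = 0.019). DESeq2 gave -2.75 (adjusted p = 0.082), and without vehicle 1 edgeR gave -2.88 (adjusted p = 0.092). Gpr65, a proton-sensing receptor of leukocytes, stood at 178 and 119 against 9.55 and 37.6 CPM (log2 fold change -2.72, SE 0.63, adjusted p = 0.044). It had 1 UMI in TAK-981 1, and in TAK-981 2 the 2 UMIs of the Napsa and Wdfy4 cells were 50% of its total. Of 15 alternatives in which Gpr65 was tested, 7 ended the call. Lyn, a Src-family kinase that signals below Fc and lectin receptors, stood at 362 and 395 against 115 and 150.4 CPM (log2 fold change -1.49, SE 0.36, adjusted p = 0.048). All of these have long transcripts.

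Other lower genes encode proteins that bind calcium or metals or lie on the cell surface. The longest transcripts of S100a4, S100a6, Crip1 and Cd52 are under 800 nt, and that of Mt1 has 1085 nt. S100a4 and S100a6, which bind calcium, stood at 2065 and 2094 against 611 and 695 CPM and at 2873 and 3219 against 1003 and 1006 CPM. Crip1, a small zinc-finger protein of dendritic and memory T cells, stood at 4475 and 3812 against 669 and 695 CPM (log2 fold change -2.60, SE 0.28, adjusted p = 0.0057 in edgeR). Mt1, a metallothionein, stood at 1169.7 and 1896 against 277 and 263 CPM, and Cd52, a small glycoprotein of leukocytes, at 2587 and 3358 against 1356 and 968 CPM. The libraries did not overlap for any of them. With the trend on transcript length removed, Crip1 was at -1.18 (adjusted p = 0.082), S100a4 at -0.18 and Cd52 at 0.08, so the calls for these 3 ended there. Gm42418, a long noncoding RNA that overlaps a ribosomal RNA repeat, stood at 87788 and 18190.2 against 8310.5 and 4774 CPM (log2 fold change -3.02, adjusted p = 0.041), with vehicle 1 far above vehicle 2.

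**Figure D4:**
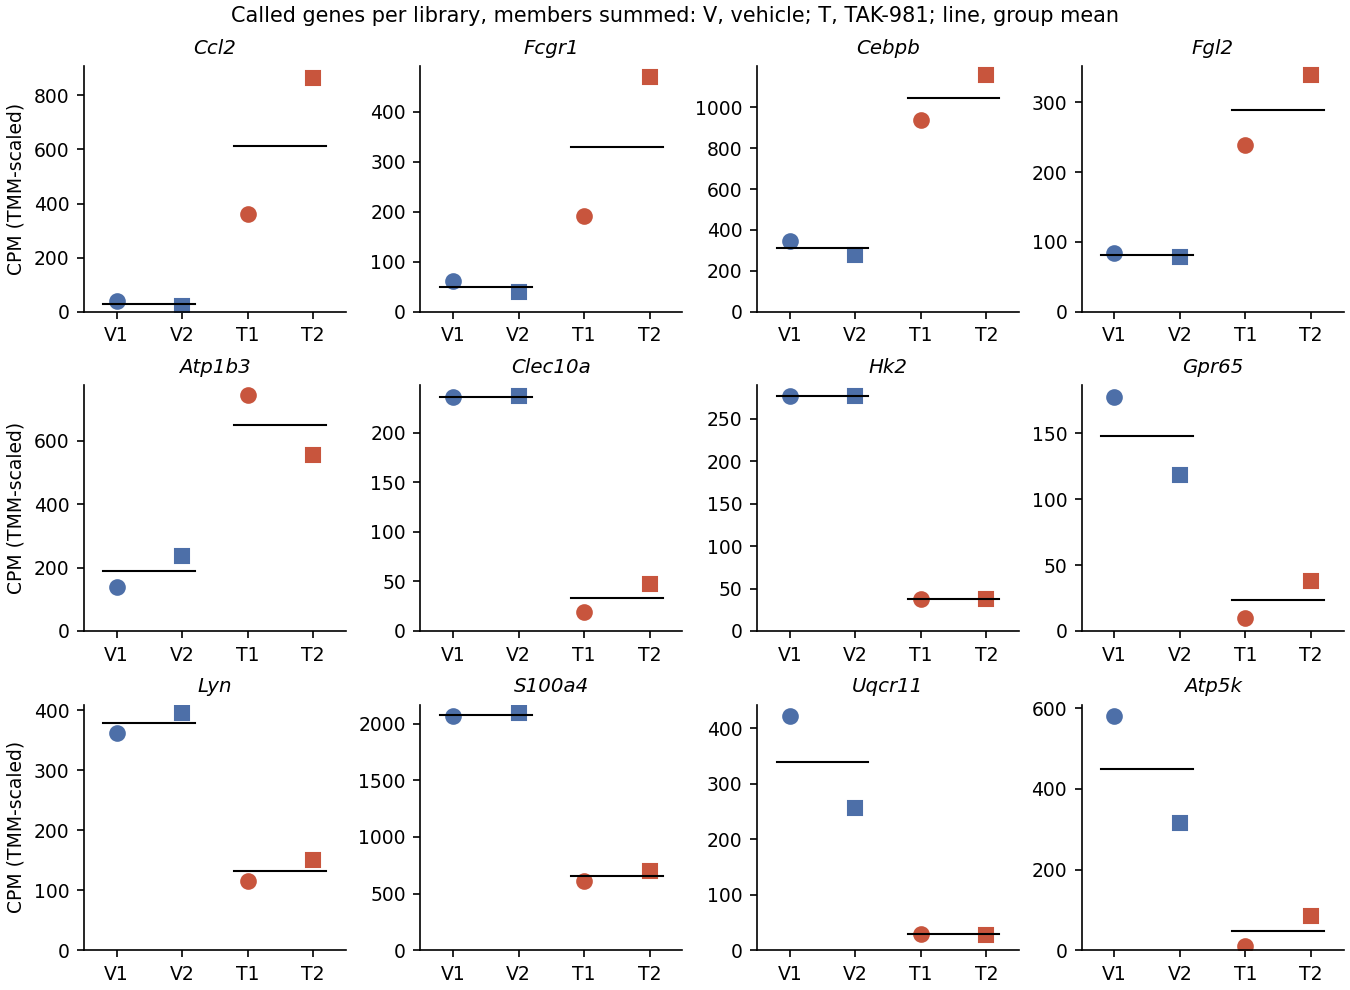
Level of 12 called genes in the members of each library, in CPM scaled by the TMM factors of the fit (vertical axes, starting at 0), for vehicle 1 and 2 (V1, V2) and TAK-981 1 and 2 (T1, T2). The top row and Atp1b3 were higher with TAK-981 and the other 7 lower, with no overlap of the libraries, and black lines are group means.

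Genes of the interferon response were detected but too sparse for most to be tested. Of 39 measured type I interferon genes, 6 had enough counts, none was called, and their median log2 fold change was 0.98, against 0.00 for all genes tested. The 39 genes summed to 2648, 1120, 3194 and 12794 CPM, so TAK-981 2 lay far above the other 3 libraries while TAK-981 1 lay close to vehicle 1. In TAK-981 2 the sum was 22920 CPM in the 5 Napsa and Wdfy4 cells and 7438 CPM in the 4 Flt3, Zbtb46, Ccl17 or Plet1 cells. Most of the latter came from 1 cell: the 4 cells had 248, 7.16, 13.5 and 19.2 UMIs of these genes per 10000. The median member had 17.9 in vehicle 1 and 13.8 in vehicle 2. Ly6e, an interferon-induced surface protein, stood at 656, 612, 1146 and 1306 CPM (adjusted p = 0.14 in edgeR). Cxcl10, which attracts Cxcr3-bearing T cells, stood at 146, 0, 0 and 1485 CPM. The median of the tested genes was 0.35 without the Napsa and Wdfy4 cells and -0.24 with members of at least 3 markers. The interferon-gamma list had 3 genes tested and 1 higher, Fcgr1. The genes that sense and transmit interferon, such as Ifngr1 (303, 356, 239 and 197 CPM), had 9 tested and none called.

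MHC class I and peptide-loading genes lay higher in the treated libraries, although none passed the test. Of 15 tested, 10 had both treated libraries above both vehicle libraries, where 22.8% of all genes did, and the median log2 fold change was 0.72. H2-D1, a class I heavy chain, stood at 793, 691, 1356 and 1851 CPM (log2 fold change 1.10, SE 0.31, adjusted p = 0.090 in edgeR). It had a UMI in 104, 16, 13 and 11 members. In the Flt3, Zbtb46, Ccl17 or Plet1 cells it stood at 609, 728, 1363 and 1622 CPM, unscaled, so both treated libraries lay above both vehicle libraries in that class too. B2m, the light chain, stood at 1379.8, 849, 1423 and 2406 CPM and Psmb8, of the immunoproteasome, at 796, 533, 1204 and 1024 CPM. In C1q macrophages H2-D1 had a log2 fold change of 1.04 (adjusted p = 0.15), and the difference between the classes was 0.10 (adjusted p = 1 in the class by treatment test).

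Other parts of the dendritic cell programme showed few calls. Of 12 genes of MHC class II processing tested, none was called, and the median was 0.18. Ctss, the protease that trims the invariant chain, stood at 1003, 1284, 1299 and 1249.8 CPM, and Ifi30, a lysosomal thiol reductase, at 1018, 1027, 1662 and 968 CPM. Costimulatory and checkpoint ligands had 3 genes tested and none called. Cd86 stood at 102, 178, 201 and 113 CPM, and Cd274, the ligand PD-L1, at 78.8, 19.8, 143 and 159.8 CPM (log2 fold change 1.19, adjusted p = 0.26 in edgeR). Of 9 cytokine and chemokine genes tested, 1 was higher, Ccl2. Il1b stood at 3705, 3160.1, 3467 and 2735 CPM, and Cxcl2, which draws neutrophils, at 1479, 1383, 898 and 996 CPM (adjusted p = 0.32). The migratory programme had 4 genes tested and none called, with Samsn1 at 166, 336, 9.55 and 56.4 CPM (adjusted p = 0.063).

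Identity genes of the lineages gave 2 calls, both lower. Of 13 transcription factors and growth factor receptors tested, none was called, and the median was -0.38. Irf8 stood at 709, 356, 181 and 442 CPM, Id2, which favours the type 1 fate, at 295, 435, 344 and 94 CPM, and Spi1, which encodes PU.1, at 265, 395, 487 and 423 CPM. The type 1 list had 7 tested and none called (median -0.50), with Cst3 at 11347, 9362, 14309 and 10177 CPM and Naaa at 563, 454, 487 and 413 CPM. The type 2 list had 12 tested and 2 lower, Clec10a and S100a4 (median -0.18), where 6.67% of all genes tested were lower. S100a4 lost its call with the trend on transcript length removed. Mgl2, a lectin close to Clec10a, stood at 776, 415, 429.9 and 469.9 CPM. Of 4 pattern recognition and lectin receptors tested, 1 was lower, Clec10a again. The libraries overlapped for Irf8, Id2, Cst3, Naaa and Mgl2.

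The SUMO genes described here were not called. Sumo2, the most used paralogue for stress-induced conjugation, stood at 306, 277, 497 and 385 CPM (log2 fold change 0.58, SE 0.35, adjusted p = 0.44 in edgeR). For Sumo2 both treated libraries lay above both vehicle libraries. Of the enzyme that TAK-981 inhibits, Sae1 had 15, 1, 4 and 3 UMIs and Uba2 26, 0, 9 and 3, too few to test. Of 8 heat shock genes tested none was called, with Hspa8 at 1181, 1165, 1929.6 and 1663 CPM (adjusted p = 0.29). Of 17 immediate early genes none was called, and Junb stood at 1531, 1501, 1777 and 1682 CPM. Of 2 cell cycle genes none was called, and Hmgb2 stood at 502, 178, 105 and 113 CPM (adjusted p = 0.094).

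Monocyte and macrophage lists were followed among the tested genes as well. Of 6 monocyte genes none was called (median 0.58), but Ly6c2, the surface marker of inflammatory monocytes, stood at 207, 0, 172 and 1353 CPM and Plac8 at 1336, 691, 1404 and 4163 CPM (adjusted p = 0.27 and 0.21 in edgeR). Of 4 macrophage genes 1 was higher, Fcgr1, with Cd68 at 181, 158, 363 and 319.5 CPM (adjusted p = 0.16) and Apoe at 213, 178, 363 and 18.8 CPM. Of 2 plasmacytoid genes none was called, and Siglech stood at 137, 0, 0 and 103 CPM. TAK-981 2 had the highest Ly6c2 and Plac8, and 41.7% of its members were the Napsa and Wdfy4 cells.

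C1q macrophages, another kind of antigen-presenting cell of the same tumours (714, 531, 427 and 391 cells), served to show where the treatment difference of the dendritic cells differed. The test of the class by treatment term, with the library as a block, covered 9035 genes. The difference was higher in the dendritic cells for 6 genes (0.0664% of those tested) and lower for 10 (0.111%). With DESeq2 size factors it was higher for 12 and lower for 11. Clec10a stood at 246, 195, 18.7 and 45.6 CPM in the dendritic cells and at 27.2, 53.9, 41.0 and 38.6 CPM in the macrophages (difference of log2 fold changes -2.98, SE 0.66, adjusted p = 0.0039 in edgeR). Its treated values in the dendritic cells lay below or within the range of the macrophages. Leaving out vehicle 1 or TAK-981 1 ended this call (adjusted p = 1 and 0.23).

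Of the 6 genes with the higher difference, most are known from inflammatory monocytes and macrophages. Ccl2 stood at 42.5, 16.2, 356 and 838 CPM in the dendritic cells and at 703, 805, 825 and 1510 CPM in the macrophages (difference 3.30, SE 0.57, adjusted p = 1.9e-05 in edgeR). Chil3, a chitinase-like protein of monocytes and alternatively activated macrophages, stood at 30.4, 114, 253 and 364 CPM against 48.2, 274, 52.1 and 37.0 CPM (difference 3.75, SE 0.52, adjusted p = 3.3e-09). Hp, which encodes haptoglobin, had 2, 1, 3 and 26 UMIs in the dendritic cells, and Ccl7, a second chemokine for Ccr2, had 1, 1, 40 and 5. In both treated libraries all UMIs of Chil3, Hp and Ccl7 lay in the Napsa and Wdfy4 cells. Chil3 UMIs came from 2 and 3 members there, and those of Ccl7 from 1 member in each treated library. Nr4a2, an immediate early nuclear receptor, stood at 301, 129.9, 290.2 and 328 CPM against 388, 267, 75.6 and 189.6 CPM. Apart from Clec10a, the genes with the lower difference (Sparc, Col3a1, Col4a1, Bgn, Ebf1, Igfbp7, Hspa1a, Hspa1b and Cxcl9) had at most 2 UMIs in the members of any library other than vehicle 1.

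For other genes called in the dendritic cells, the difference between the classes did not pass the test. Atp1b3 had a log2 fold change of 1.57 in the macrophages (adjusted p = 0.051 in edgeR), and the difference of the dendritic cells from it was 0.40 (SE 0.47, adjusted p = 1). Hk2 was at -1.71 in the macrophages (adjusted p = 0.17), and its difference was -1.08 (SE 0.63, adjusted p = 1). S100a4 was at -1.93 there (adjusted p = 0.053), with a difference of 0.34. Fcgr1 and Fgl2 were at 0.92 and 0.72 in the macrophages, with differences of 1.49 and 1.23 that did not pass (adjusted p = 0.59 and 0.97). For Atp1b3, Hk2 and S100a4 the direction was the same in both classes, although none passed 0.05 in the macrophages.

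**Figure D5:**
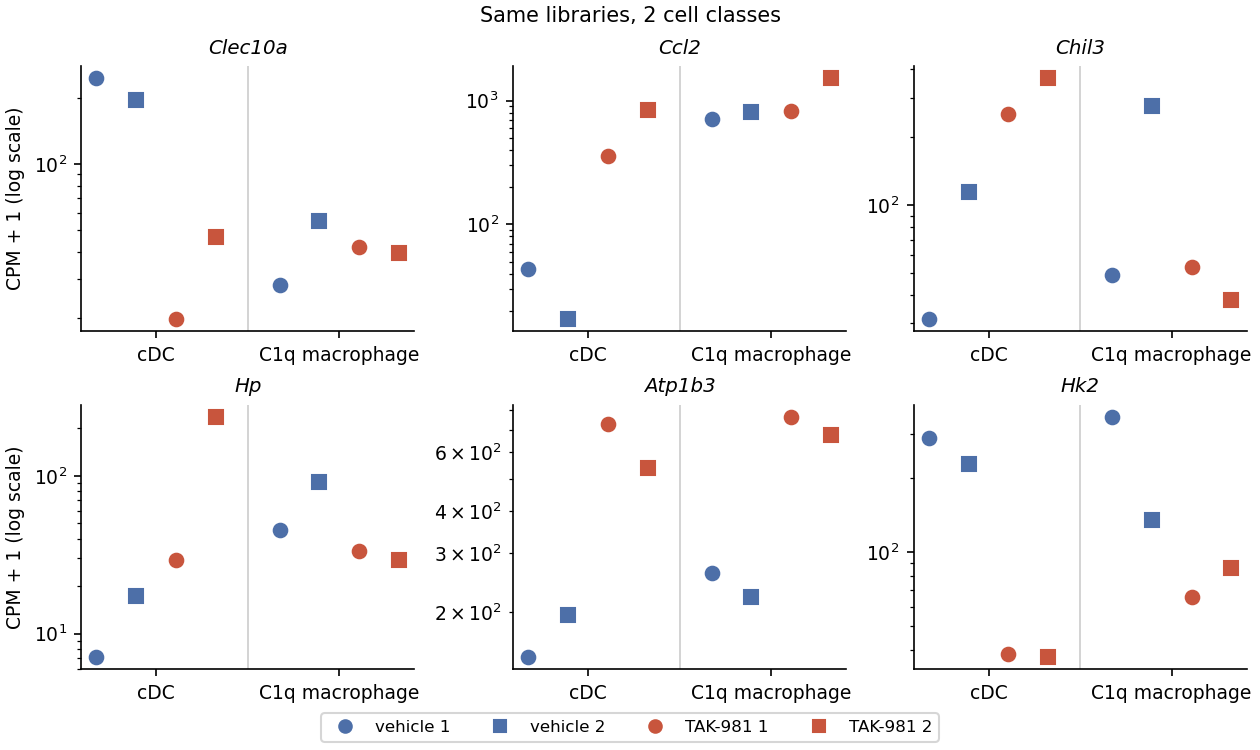
Level of 6 genes in conventional dendritic cells (cDC) and C1q macrophages of the same 4 libraries, in CPM + 1 on a log axis, with CPM scaled by the TMM factors of the joint fit. Among the dendritic cells Clec10a lies lower and Ccl2, Chil3 and Hp lie higher with TAK-981, while Atp1b3 lies higher and Hk2 lower with TAK-981 in both classes.

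Beside the mature cells that the rule set aside, the members showed an immature profile, which the rule in part fixed. The mature barcodes numbered 48, 7, 5 and 14, so among both kinds together they made up 27.4%, 28%, 25% and 53.8%. Relb, an NF-kB subunit of mature dendritic cells that the rule did not use, stood at 27.7, 38.0, 10.3 and 42.0 CPM, unscaled, in the members and at 307, 86.1, 359 and 170 CPM in the mature cells. Ccl5 stood at 0, 75.9, 10.3 and 304 CPM against 1629, 129, 1153 and 1436 CPM. Il12b, which encodes the p40 chain of interleukin-12 and interleukin-23, had 4, 0, 0 and 0 UMIs in the members and 37, 0, 0 and 26 in the mature cells. Cd40 stood at 22.7, 0, 20.6 and 115 CPM against 82.6, 0, 282 and 162 CPM. Lyz2, lysozyme of monocytes and macrophages, stood at 1026, 2620, 3740 and 5290 CPM in the members, lower than in the C1q macrophages (6413 to 13148 CPM) and above the mature cells (86.1 to 1565 CPM) of each library.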

How the data were processed

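Single-cell 3' RNA libraries from 4 tumours were analysed, 2 per group and 1 mouse each. The deposited values are whole UMI counts for each gene in each barcode. Per the submitters' processing notes the authors used Cell Ranger 6.1.2 and the mouse build mm10, and the annotation release is not given in the sources used here. Reads were not mapped again. Columns left unused numbered 0. The members, the gene lists and the named-gene rule were chosen with earlier results of these data known.

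The rule for membership was applied in Python 3.11.15 with pandas 2.3.3, numpy 2.4.6 and scipy 1.17.1. No doublet caller was used for the main results, and Scrublet in scanpy 1.11.5 served as an alternative. C1q macrophages were barcodes within the same quality limits with at least 5 C1q UMIs and a UMI of Csf1r or Adgre1, under the same keratin, Cd3e and Cd79a limits. Counts were summed per library and tested in R 4.3.3 with edgeR 4.0.16 (filterByExpr at a minimum count of 10, TMM scaling, quasi-likelihood test, Benjamini-Hochberg adjustment over all genes tested, threshold 0.05). DESeq2 1.42.0 was an alternative. The functions were tested on simulated counts with known changes. The counts of the libraries of 1 group differed by more than sampling noise (chi-squared per degree of freedom 2.36 for vehicle and 3.69 for TAK-981), so none was taken as a repeat of another. Share intervals are 95% exact binomial, and a share of 0 allows up to 3 counts of the total.

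Named genes were, in each direction, up to 15 called genes with no overlap of the libraries by size of change, the 3 tested genes of highest mean level in each list and any called member of a list, the SUMO genes and the genes of the rule. The subtype and class comparisons named up to 8 and 5 genes per direction. Rpl37a, Crip1, Mt1, S100a6, Cd52, Lyn, Nr4a2, Samsn1, H2-D1 and the genes shown beside mature cells were picked after their values were seen where this rule does not give them. Some genes that the rule gives are not reported here. Promoter sequences and motif shares came from a RefSeq table (GRCm38.p6), and transcript lengths and gene positions from GENCODE M21. Alternatives changed the scaling, filters, tool, quality limits, membership, depth, doublets and libraries, and those on transcript length, MHC class II, Napsa and Wdfy4 cells, plasmacytoid genes and the crossed block were chosen after seeing the data. DESeq2 was run with its own filtering.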

Additional observations from a re-analysis of the deposited data

Results flagged for a closer look

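The TAK-981 difference in conventional dendritic cells was tested against that in C1q macrophages of the same mice, and it differed between the classes for the 9 genes listed here and for Clec10a and Nr4a2, given above, among others (edgeR class by treatment test, adjusted p in each case). The difference was higher in the dendritic cells for Chil3 (adjusted p = 3.3e-09), Ccl2 (1.9e-05), Hp (4.8e-05) and Ccl7 (0.00061). In TAK-981 1 and TAK-981 2 all UMIs of Chil3, Hp and Ccl7 lay in members marked by Napsa and Wdfy4 alone, and Ccl7 UMIs came from 1 member in each. Without TAK-981 2 the Hp difference was 2.49 (adjusted p = 1), and without TAK-981 1 that of Ccl7 was 1.64 (adjusted p = 1).

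The difference was lower in the dendritic cells for Sparc (adjusted p = 4.1e-15), Col4a1 (0.00019), Col3a1 (0.0012), Bgn (0.0088) and Ebf1 (0.018). The first 4 are genes of matrix and stromal cells, and Ebf1, a transcription factor, is in the B or plasma cell list used here. Their UMIs in the members were almost all in vehicle 1, where 1 member held 31 of 35 for Sparc, 39 of 39 for Col4a1 and 9 of 10 for Bgn, and both TAK-981 libraries had 0 for each of the 5 genes. A fitted fold against libraries at 0 is no bound, so none is given.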

How the results depend on the processing

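Of the single-gene values recomputed under alternatives, 458 kept direction and call, 102 lost the call, 3 gained it and 2 changed sign. The sign changed for Cebpb (-0.32 with at least 3 of the 10 markers) and for Cd52 (0.078 with the length trend removed). Settings in which a gene had too few counts to be tested are not in this tally. Ccl2 and Fcgr1 without the Napsa and Wdfy4 cells are among those left out. The 100 called genes of 1425 tested became 167 of 11615 without a count filter. They became 63 of 946 with at least 3 markers and 58 of 227 with members thinned to 1000 UMIs. Without transcripts under 800 nt they became 29 of 1374, and with the length trend removed 20 of 1425. Both of these last settings were chosen after seeing the data. The number of genes tested differed between settings, so the counts alone do not rank them. Leaving out 1 library gave 9 (without vehicle 1) to 211 (without TAK-981 1). DESeq2 gave 5 higher and 63 lower, and without members of 3 or more plasmacytoid genes 16 were higher. The 16 genes that differed from macrophages became 5 without vehicle 1 and 22 without vehicle 2, the lowest and highest counts when 1 library was left out, and 23 with DESeq2 size factors. The causes were not tested. Leave-one-out fits leave an arm with 1 library, which is assumed to vary like the others.

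The share of dendritic cells turned from -1.08 to 0.0997 percentage points without vehicle 1, and ranged from -2.25 to 0.0997 when libraries were left out. The Xcr1 or Clec9a share turned from 21.8 to -19.4 points at 2000 UMIs, had no value at 1000 UMIs, and was 6.67 to 37.0 points when libraries were left out. The cycling share turned from 6.90 to -5.43 points at 1000 UMIs, -0.967 at 2000 UMIs, -0.252 with at least 1000 UMIs per barcode and -0.563 with at least 3 markers.

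With the replicate block 10 genes were higher and 105 lower, a total of 115. Over 1425 genes the deviations of same-numbered libraries from their group means correlated at -0.118, and nothing in the labels ties the numbers together. The numbers were therefore not taken to pair mice. With 2 libraries per group the crossed value, 0.118, is the mirror of the first, so this correlation cannot exclude a pairing. With the crossed block 18 were higher and 113 lower.

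The depth limits what could be seen: 15 and 12 treated cells left 1425 genes testable, mostly abundant ones.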

Other observations

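Genes of matrix and stromal cells were also found in the macrophages of these libraries, which the comparison of classes used as its other arm. Sparc had 24, 38, 1055 and 310 UMIs and Col3a1 had 19, 16, 591 and 182 UMIs in the C1q macrophages of vehicle 1, vehicle 2, TAK-981 1 and TAK-981 2. Igfbp7, a secreted protein of endothelial cells and fibroblasts, had 8, 28, 462 and 167 there. Each was higher in both treated libraries than in both vehicle libraries, while the dendritic cells had 0 UMIs of Sparc and Col3a1 in both treated libraries.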
